A study of Mus musculus with 6 samples.

Results

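Nuclear receptors are transcription factors that bind small lipophilic ligands or act without a known ligand, and coregulators are the proteins they recruit to chromatin. Here 36 genes of these groups, 32 receptors and 4 coregulators, were followed in mouse liver. They were chosen by gene symbol for their role, with earlier results of these data known, and the gene table held 21362 genes in all. The liver RNA came from 6 Mettl14f/f male mice with the C57BL/6J background on a high-fat diet (HFD). HFD began at 8 weeks of age, and the mice received a vector by tail vein after 10 weeks of HFD. Of these mice, 3 received AAV8-TBG-GFP and 3 received AAV8-TBG-Cre, and livers were collected 8 weeks after injection. The AAV8-TBG-GFP livers are called controls below. The floxed Mettl14 alleles were shared by both groups, so the groups differed by the vector. Since the TBG promoter is active in hepatocytes, other liver cells of the AAV8-TBG-Cre mice are not targeted. METTL14 is the partner of METTL3 in the enzyme complex that places m6A, a methyl mark on adenosine, in mRNA.

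Most nuclear receptors share a zinc finger domain that binds DNA and a domain that binds ligand, and many of them work as a pair with a retinoid X receptor (RXR). Without an activating ligand several receptors hold corepressors such as NCOR1, and ligand exchanges these for coactivators of the NCOA group. In hepatocytes FXR senses bile acids, LXR senses oxysterols, PXR and CAR sense drugs and other foreign compounds, and the thyroid hormone, glucocorticoid and retinoic acid receptors set metabolic gene programs.

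The targeted gene, Mettl14, was at 6.30, 6.43 and 5.81 CPM, the count scaled to library size by TMM, in controls and 4.96, 5.38 and 4.86 CPM with AAV8-TBG-Cre. Each AAV8-TBG-Cre liver was below each control in CPM, while the groups overlapped in FPKM. Its log2 fold change of -0.29 (SE 0.15, adjusted p = 0.337 from edgeR) did not pass either threshold used here. Counts per gene do not show whether the floxed part was missing from the remaining mRNA. Total expected counts lay between 20356440 and 21010508 per library. Markers below are counted as higher or lower at an unadjusted p under 0.05 in edgeR and a fold of at least 1.2. Of all genes tested, 12.0% were higher and 8.41% lower by this rule. Hepatocyte markers summed to 89711 to 111080 CPM in controls and 76213 to 97771 with AAV8-TBG-Cre, with 1 of 8 higher and 1 lower. Cholangiocyte markers, of which all 8 tested were higher, summed to 73.2 to 129 CPM against 310 to 581. The macrophage and Kupffer cell list summed to 172 to 199 CPM against 242 to 327 (5 of 8 higher), and that of stellate cells and fibroblasts to 216 to 324 against 401 to 832 (3 of 7 higher). Endothelial markers summed to 156 to 248 CPM against 158 to 191 (1 of 8 lower). All 8 had a negative log2 fold change (median -0.29), against 51.0% of all genes. Sums for neutrophils were 10.1 to 10.6 CPM against 14.0 to 16.8 (3 of 4 tested higher, 1 lower), for T and NK cells 1.57 to 2.81 against 2.24 to 5.30 (1 of 2 higher), and for B cells 1.33 to 1.47 against 1.59 to 3.96 (1 of 1 higher). The part of these other cells in the results below was not tested, and in whole liver RNA fewer cells of a type and less RNA per cell cannot be told apart.

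More receptor mRNAs were lower than higher in the AAV8-TBG-Cre livers after TMM scaling, and 4 of these encode receptors for xenobiotics and bile acids or, for Nr0b2, their partner SHP. On log2(FPKM + 1) with a filter the numbers lower and higher were equal. Of the 36 genes, 34 had enough counts to be tested, and Vdr and Hnf4g did not. At a fold change of 1.2 or more with an unadjusted p under 0.05, 8 of the 34 were lower (23.5%), against 8.41% of all 13431 genes tested. The 8 were Nr1i3, Nr1h4, Nr1i2, Nr0b2, Rxrg, Thrb, Esrrg and Nr6a1. Rarg alone was higher, 1 of 34 (2.94%), against 12.0% of all genes. By the Benjamini-Hochberg adjusted p over all genes, edgeR called 1, Nr1i3, against 0.931% of all genes. Without control replicate 3 the number of lower genes was 5, and without AAV8-TBG-Cre replicate 3 it was 4. By adjusted p it was 4 without AAV8-TBG-Cre replicate 1 (Nr1i3, Nr1i2, Nr1h4 and Thrb) and 0 without any of the other 5 libraries.

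The groups did not overlap in CPM for 6 lower genes of the 34 (17.6%), against 13.0% of all genes, and for 2 higher genes, Rarg and Rarb (5.88%), against 14.0%. The median log2 fold change of the 34 was -0.15, against -0.0065 for all genes tested. Of the 34, 26 had a negative value (76.5%), against 51.0% of all genes. This split depended on the scale. On log2(FPKM + 1), where FPKM scales a count by transcript length and mapped fragments, the median of all genes itself was 0.11. There 15 of the 31 genes that passed the FPKM filter were below 0, and 24 were below the median of all genes. With limma on that scale 3 were lower (Nr1i3, Nr1h4 and Esrrg) and 3 higher (Rara, Rarb and Rarg), while over all genes 1880 were higher and 365 lower, against 1618 and 1129 in edgeR.

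**Figure D1:**
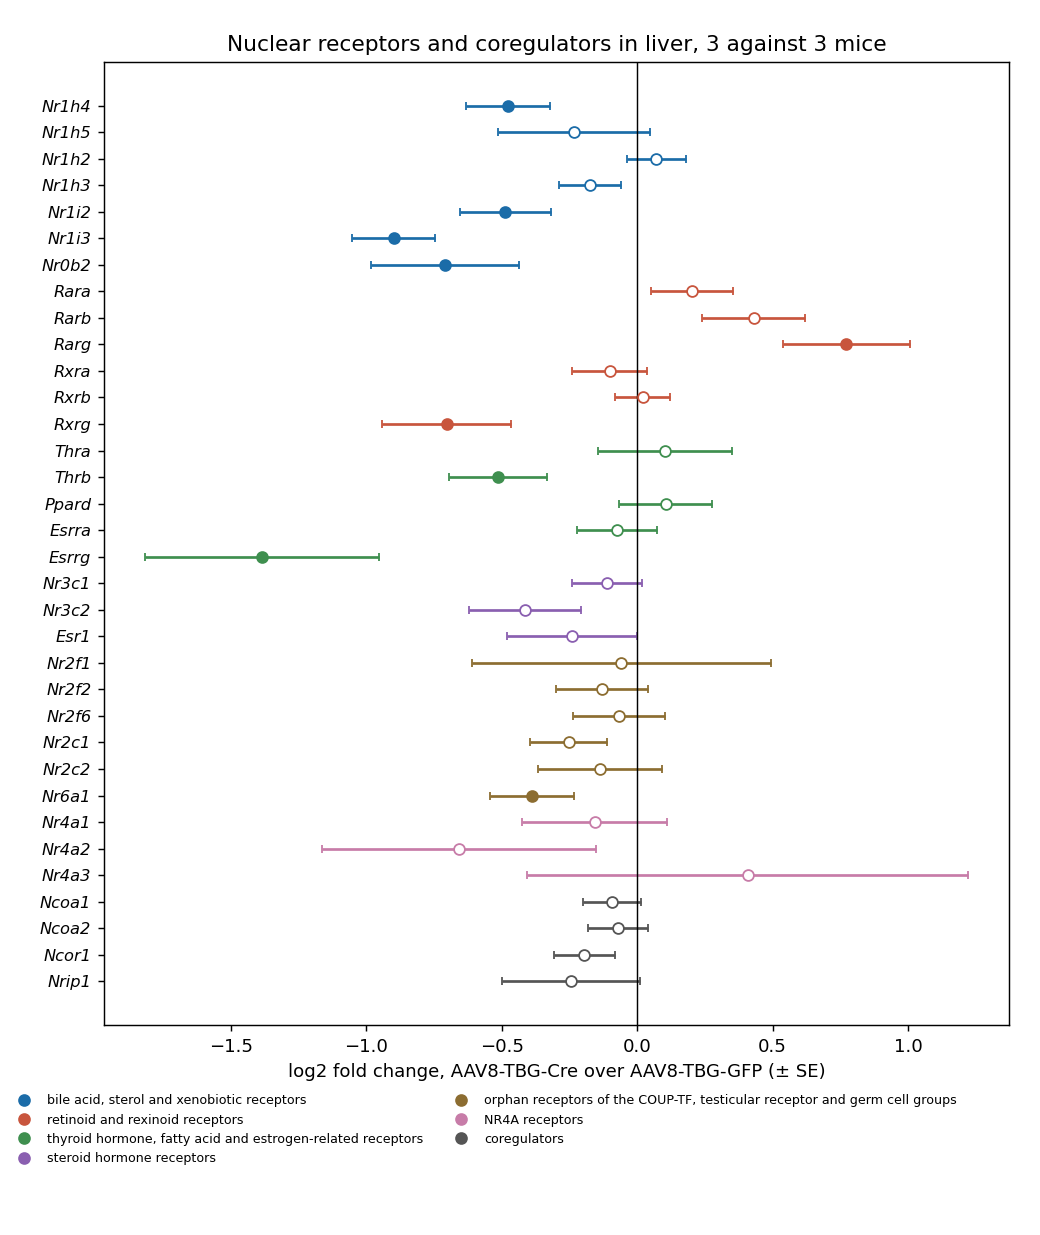
Log2 fold change (x axis, AAV8-TBG-Cre over controls, with SE bars from edgeR) of the 34 genes tested, ordered and coloured by role, with filled points for the 9 past the unadjusted threshold. Esrrg lies farthest to the left at -1.39 and Rarg farthest to the right among filled points at 0.77.

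Among the receptors for bile acids, sterols and foreign compounds, 4 of 7 tested were lower, against 8.41% of all genes. A negative log2 fold change was found for 6 of the 7, against 51.0% of all genes. Nr1i3 encodes CAR, which induces drug-metabolizing enzymes, and lies on chromosome 1 from 171213934 to 171218845 in GRCm38. Its level was 181, 165 and 194 CPM in controls and 84.7, 117 and 88.0 in the AAV8-TBG-Cre livers. Each AAV8-TBG-Cre liver was well below the lowest control. The log2 fold change was -0.90 (SE 0.15, adjusted p = 0.0491 from edgeR), which left 53.6% of the control level. The adjusted p ranged from 2.12e-05 to 0.198 over the fits, and the unadjusted call was made in all 15 fits, the main one included.

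Nr1h4 encodes FXR, the bile acid receptor (chromosome 10, 89454234 to 89533645). It had 165, 174 and 173 CPM in controls and 149, 101 and 119 with AAV8-TBG-Cre. The controls lay close together and above all 3 AAV8-TBG-Cre livers, of which replicate 1 came nearest. On the log2 scale the difference was -0.48 (SE 0.15, adjusted p = 0.147 from edgeR), and the unadjusted call was made in all 15 fits. Nr0b2 encodes SHP, a receptor without a DNA-binding domain that FXR induces and that represses other receptors (chromosome 4, 133553376 to 133556686). Its level was 44.0, 35.5 and 52.8 CPM against 25.3, 37.9 and 17.5. Here AAV8-TBG-Cre replicate 2 was above control replicate 2, so the groups overlapped. The fitted log2 fold change was -0.71 (SE 0.27, adjusted p = 0.200 from edgeR), and the unadjusted call was made in 7 of 15 fits. It was lost without control replicate 1 (-0.72) or 3 (-0.57) and without AAV8-TBG-Cre replicate 1 (-0.67) or 3 (-0.48). Nr0b2 was also not called by limma on the FPKM scale or with the replicate number as a block.

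Nr1i2 encodes PXR, the receptor for many drugs and steroids (chromosome 16, 38248349 to 38294849). It had 101, 92.4 and 84.2 CPM in controls and 83.0, 59.3 and 56.2 with AAV8-TBG-Cre. The groups did not overlap, but AAV8-TBG-Cre replicate 1 lay just below the lowest control. On the log2 scale the difference was -0.49 (SE 0.17, adjusted p = 0.162 from edgeR), with the unadjusted call in 9 of 15 fits. It was lost without control replicate 1 (-0.42), AAV8-TBG-Cre replicate 2 (-0.42) or AAV8-TBG-Cre replicate 3 (-0.38). Limma on the FPKM scale did not call Nr1i2 either.

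The oxysterol receptors did not pass the test. Nr1h3, which encodes LXRα, had 97.4 ± 4.04 CPM (SD, n = 3 mice) in controls and 86.3 ± 9.22 (SD, n = 3) with AAV8-TBG-Cre (log2 fold change -0.18, SE 0.11). Nr1h2, which encodes LXRβ, had a log2 fold change of 0.07 (SE 0.11). Nr1h5, the FXRβ gene, was at 1.99 to 3.41 CPM in controls and 2.00 to 2.88 with AAV8-TBG-Cre (log2 fold change -0.23, SE 0.28). Vdr, the vitamin D receptor gene, had 1, 3 and 0 counts against 6, 12 and 5 and was too low to be tested. The AAV8-TBG-Cre libraries were the higher ones, and without the filter edgeR gave a log2 fold change of 2.22 (SE 0.88, adjusted p = 0.227).

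The bases before 4 of the called genes are shown because their proximal promoters differ in kind, from a start with a TATA box to one rich in G and C. The sequences are from RefSeq on GRCm38.p6, each 5′ to 3′ on the strand of its gene and ending at the base before the gene starts. Capitals mark the motifs searched on both strands, which were AGGTCA (the core motif of nuclear receptors), AGTTCA (a variant in retinoic acid elements) and TATAAA (the TATA box).
Nr1i3, chr1:171213720-171213933, plus strand: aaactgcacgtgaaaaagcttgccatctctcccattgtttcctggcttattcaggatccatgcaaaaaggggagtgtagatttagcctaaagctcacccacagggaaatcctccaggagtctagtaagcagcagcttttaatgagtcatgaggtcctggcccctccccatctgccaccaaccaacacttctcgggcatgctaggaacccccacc
Nr1i2, chr16:38294850-38295074, minus strand: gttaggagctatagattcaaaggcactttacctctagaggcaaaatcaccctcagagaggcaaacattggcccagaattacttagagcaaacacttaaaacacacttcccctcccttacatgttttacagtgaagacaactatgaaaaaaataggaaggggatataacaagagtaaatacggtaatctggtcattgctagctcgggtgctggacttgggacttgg
Nr0b2, chr4:133553126-133553375, plus strand: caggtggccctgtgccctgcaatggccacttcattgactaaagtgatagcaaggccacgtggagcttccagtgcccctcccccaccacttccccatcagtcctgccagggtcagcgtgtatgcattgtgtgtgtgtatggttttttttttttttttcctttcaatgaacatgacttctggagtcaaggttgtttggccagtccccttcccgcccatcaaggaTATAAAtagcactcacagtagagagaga
Rarg, chr15:102257523-102257772, minus strand: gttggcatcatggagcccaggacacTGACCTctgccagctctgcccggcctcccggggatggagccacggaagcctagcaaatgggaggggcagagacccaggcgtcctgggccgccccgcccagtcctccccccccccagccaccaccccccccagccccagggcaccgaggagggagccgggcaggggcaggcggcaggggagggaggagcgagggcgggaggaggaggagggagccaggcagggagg

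In Nr0b2 the TATAAA began 28 bases before the gene's first base. In Rarg the match was TGACCT, which is AGGTCA on the other strand, and it began 225 bases before the first base. The Nr1i3 and Nr1i2 windows held none of the motifs. The G and C content of the 250-base windows was 44.0% for Nr1i2, 50.0% for Nr0b2, 53.2% for Nr1i3 and 74.4% for Rarg, against a median of 52.4% over 32851 promoters. RefSeq held promoters for 32 of the 36 genes. Some have several, which gave 49 promoters. AGGTCA occurred in 6 of the 49 (12.2%), against 14.0% of all promoters, and these belong to Nr1h4, Nr6a1, Rarg, Rxra, Rxrg and Thrb. AGTTCA occurred in 8 of the 49 (16.3%), Rara and Rarb among them, against 11.8%. TATAAA occurred in 4 (8.16%), those of Nr0b2, Thrb, Esrrg and Nr4a2, against 12.4%. No match says only that these letters are not in the window.

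**Figure D2:**
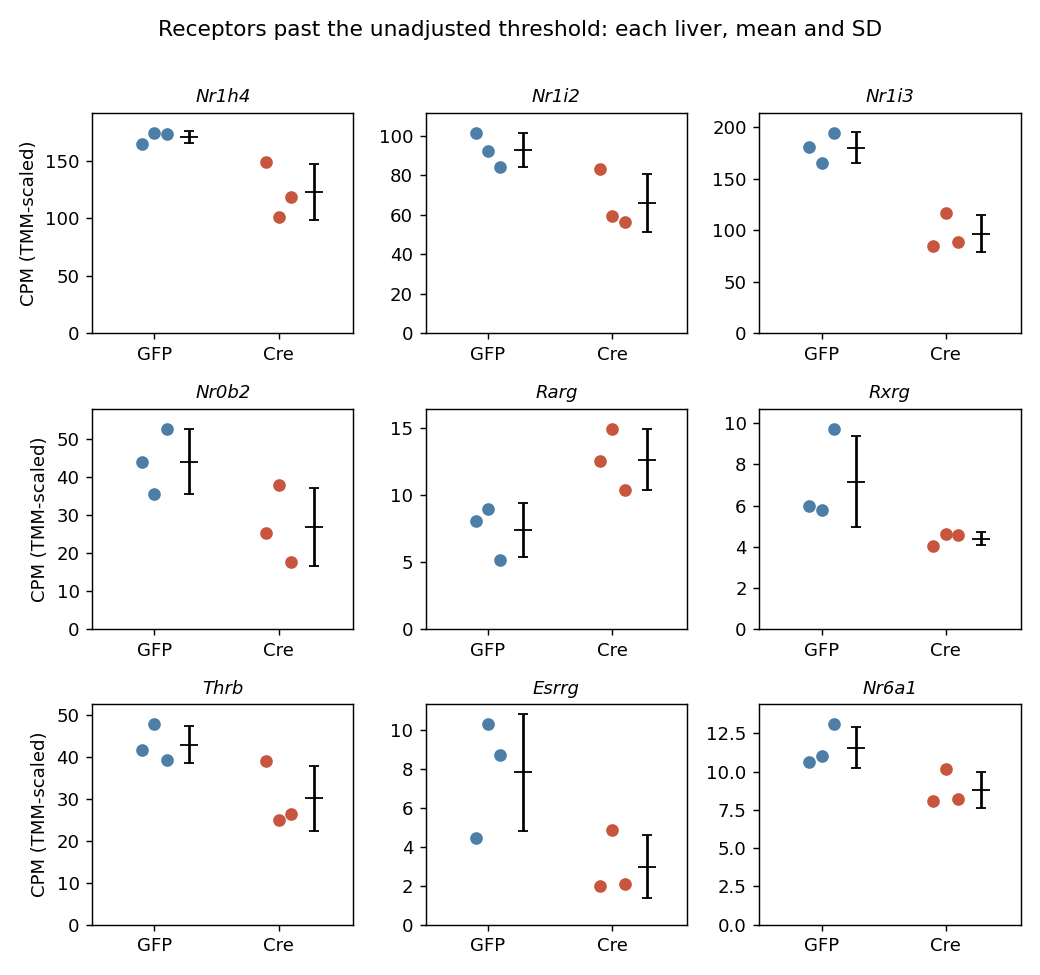
CPM scaled by TMM (y axes, starting at 0) in each liver for the 9 genes past the unadjusted threshold, with points for the 3 control and 3 AAV8-TBG-Cre livers and the mean and SD beside them. The groups overlap for Nr0b2 and Esrrg and do not overlap for the other 7.

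Of the 6 retinoid receptor genes, 1 was higher and 1 lower, against 12.0% and 8.41% of all genes. Rarg encodes the retinoic acid receptor γ and lies on chromosome 15 from 102234938 to 102257522. It had 8.08, 8.98 and 5.13 CPM in controls and 12.6, 15.0 and 10.4 with AAV8-TBG-Cre. The AAV8-TBG-Cre livers were all above the controls, and AAV8-TBG-Cre replicate 2, the highest, was also the library with the highest sums of cholangiocyte and of stellate and fibroblast markers. The fitted log2 fold change was 0.77 (SE 0.23, adjusted p = 0.130 from edgeR), with the unadjusted call in all 15 fits. For Rarg without AAV8-TBG-Cre replicate 2 the value was 0.63 and still called. The remaining AAV8-TBG-Cre livers also had higher sums of these markers than each control. Whether the mix of cells had a part in the Rarg level was not tested.

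Rarb encodes the retinoic acid receptor β and is itself induced by retinoic acid. Its level was 3.10, 3.42 and 3.35 CPM against 4.10, 4.11 and 5.10. The groups did not overlap. At 0.43 (SE 0.19, adjusted p = 0.247 from edgeR) the log2 fold change missed the unadjusted threshold. Rara, the gene of the α receptor, had a log2 fold change of 0.20 (SE 0.15) and groups that overlapped in CPM. On log2(FPKM + 1), Rarb (0.34) and Rara (0.34) both passed the unadjusted threshold with limma.

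Rxra, Rxrb and Rxrg encode the RXR partners of most of the receptors above. Rxra had 713, 637 and 650 CPM in controls and 629, 573 and 662 with AAV8-TBG-Cre. In edgeR Rxra had a log2 fold change of -0.10 (SE 0.14), which was 0.07 on log2(FPKM + 1). The groups overlapped, and the difference was within the spread between mice. Rxrb had a log2 fold change of 0.02 (SE 0.10). Rxrg, known mainly from muscle and brain, was at 6.00, 5.76 and 9.74 CPM against 4.01, 4.60 and 4.57 (chromosome 1, 167598362 to 167639623). All 3 AAV8-TBG-Cre livers were below the controls, among which replicate 3 stood high. The log2 fold change was -0.70 (SE 0.24, adjusted p = 0.158 from edgeR), with the unadjusted call in 11 of 15 fits. Without control replicate 3 the value for Rxrg was -0.43 and no longer called. Limma on the FPKM scale did not call Rxrg either.

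Of the thyroid hormone, fatty acid and estrogen-related receptors, 2 of 5 tested were lower, against 8.41% of all genes. Thrb encodes the β receptor, the main thyroid hormone receptor of hepatocytes (chromosome 14, 17659225 to 18040097). It had 41.7, 47.7 and 39.4 CPM in controls and 39.0, 24.9 and 26.3 with AAV8-TBG-Cre. The groups did not overlap, but AAV8-TBG-Cre replicate 1 nearly reached the lowest control. On the log2 scale the difference was -0.51 (SE 0.18, adjusted p = 0.172 from edgeR), with the unadjusted call in 9 of 15 fits. It was lost without control replicate 2 (-0.43), AAV8-TBG-Cre replicate 2 (-0.40) or AAV8-TBG-Cre replicate 3 (-0.43). Limma on the FPKM scale did not call Thrb either. Thra, the gene of the α receptor, had a log2 fold change of 0.10 (SE 0.25), which turned to -0.088 with a term for the name form of the library.

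Esrrg encodes the estrogen-related receptor γ, an orphan receptor of energy metabolism (chromosome 1, 187608510 to 188214885). Its level was 4.47, 10.3 and 8.74 CPM against 2.00, 4.85 and 2.07. It varied widely within each group, and AAV8-TBG-Cre replicate 2 lay above control replicate 1. The log2 fold change of -1.39 (SE 0.43, adjusted p = 0.136 from edgeR) was the largest decrease among the 34 genes, with the unadjusted call in all 15 fits. Esrra, which encodes the α form, had 33.3 ± 1.82 CPM (SD, n = 3 mice) and 31.6 ± 5.86 (SD, n = 3), with -0.07 (SE 0.15) as log2 fold change and 0.07 on log2(FPKM + 1). Ppard, a fatty acid receptor gene, had a log2 fold change of 0.11 (SE 0.17). Hnf4g, a paralog of Hnf4a that is usually low in liver, had 6, 5 and 5 counts against 11, 13 and 5 and was not tested.

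None of the 3 steroid hormone receptors passed the threshold in edgeR. Nr3c2, the mineralocorticoid receptor gene, had 11.7, 7.75 and 12.9 CPM against 7.35, 8.95 and 7.94, a log2 fold change of -0.42 (SE 0.21, adjusted p = 0.302 from edgeR). Control replicate 2 lay among the AAV8-TBG-Cre livers, and without it the log2 fold change was -0.61 and called at the unadjusted threshold. Nr3c1, the glucocorticoid receptor gene, had 78.4 ± 7.07 CPM (SD, n = 3) and 72.5 ± 9.58 (SD, n = 3), with -0.11 (SE 0.13) as log2 fold change and 0.048 on log2(FPKM + 1). Esr1, which encodes the estrogen receptor α, was at 23.2, 23.2 and 24.5 CPM against 27.5, 13.0 and 19.6. The controls were nearly alike and the AAV8-TBG-Cre livers spread to both sides of them (log2 fold change -0.24, SE 0.24). Without AAV8-TBG-Cre replicate 1 the value for Esr1 was -0.54 and called at the unadjusted threshold.

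Of the 6 orphan receptors of the COUP-TF, testicular receptor and germ cell groups, 1 was lower, against 8.41% of all genes. Nr6a1, the germ cell nuclear factor gene (chromosome 2, 38723369 to 38926461), had 10.6, 11.0 and 13.1 CPM in controls and 8.06, 10.2 and 8.23 with AAV8-TBG-Cre. The groups did not overlap, by a small margin. The fitted log2 fold change was -0.39 (SE 0.15, adjusted p = 0.209 from edgeR), with the unadjusted call in 7 of 15 fits. It was lost without control replicate 2 (-0.42) or 3 (-0.30) and without AAV8-TBG-Cre replicate 1 (-0.33) or 3 (-0.34). Nr6a1 was also not called by limma on the FPKM scale or with the replicate number as a block. Nr2c1 and Nr2c2, the testicular receptor genes, had log2 fold changes of -0.25 (SE 0.14) and -0.14 (SE 0.23), and without AAV8-TBG-Cre replicate 1 that of Nr2c1 was -0.40 and called. The COUP-TF genes Nr2f1, Nr2f2 and Nr2f6 had log2 fold changes of -0.06, -0.13 and -0.07, each smaller than its SE, and on log2(FPKM + 1) without a filter all 3 were above 0.

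NR4A receptors are immediate-early orphan receptors that glucagon and other cAMP signals induce in liver. All 3 were low. Nr4a1 had 3.00, 4.74 and 4.08 CPM against 2.62, 4.35 and 3.61, a log2 fold change of -0.16 (SE 0.27). Nr4a2 ranged from 0.733 to 2.09 CPM in controls and from 0.477 to 1.40 with AAV8-TBG-Cre (log2 fold change -0.66, SE 0.50). Nr4a3 had 11, 12 and 6 counts against 1, 32 and 12, and its log2 fold change of 0.41 (SE 0.81) turned to -0.66 without AAV8-TBG-Cre replicate 2. The groups overlapped for all 3 genes.

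None of the 4 coregulators passed the threshold in edgeR, and their median log2 fold change was -0.14, with all 4 values below 0. Those of Ncoa1 and Ncoa2 were above 0 on the FPKM scale, and that of Ncoa2 was 0.0039 without control replicate 2. Ncor1, the gene of the corepressor that holds histone deacetylase 3 at unliganded receptors, had 150, 158 and 165 CPM in controls and 129, 134 and 151 with AAV8-TBG-Cre. The groups overlapped only by AAV8-TBG-Cre replicate 3 against control replicate 1, and the log2 fold change was -0.20 (SE 0.11, adjusted p = 0.374 from edgeR). The coactivator genes Ncoa1 and Ncoa2 had log2 fold changes of -0.09 (SE 0.11) and -0.07 (SE 0.11), which were 0.06 and 0.08 on log2(FPKM + 1). Nrip1, which encodes the corepressor RIP140, was at 4.98 to 9.32 CPM and 5.68 to 7.48 CPM (log2 fold change -0.24, SE 0.26), and without control replicate 1 its value was -0.49 and called at the unadjusted threshold.

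Among the 36 genes, levels per length put the same 8 receptors at the top in both groups. Receptors outside the 36 are not ranked here, such as Hnf4a at 162 ± 22.5 FPKM and Ppara at 76.4 ± 4.94 in controls (SD, n = 3). In FPKM, Rxra had 121 ± 10.1 (SD, n = 3 mice) in controls, and Nr1i3 had 121 ± 7.75 (SD, n = 3), so these leaders did not differ beyond their spread. They were followed by Nr1h4 (78.2 ± 2.03), Nr1h3 (50.9 ± 2.44), Nr2f6 (40.8 ± 5.90), Nr1i2 (34.3 ± 4.15), Nr0b2 (32.6 ± 5.71) and Nr1h2 (23.1 ± 1.89). Control livers overlapped between Nr2f6 and Nr1i2 and between Nr1i2 and Nr0b2, while Nr1h4, Nr1h3 and Nr1h2 stood apart from their neighbours in this order. With AAV8-TBG-Cre, Rxra had 127 ± 3.18 FPKM (SD, n = 3), and Nr1i3 had 74.0 ± 21.1 (SD, n = 3), next to Nr1h4 at 62.7 ± 9.27 (SD, n = 3). The 8 genes made up 79.4% of the summed FPKM of the 36 genes in controls and 76.0% with AAV8-TBG-Cre. The share of Nr1i3 in this sum was 19.1% ± 0.862 (SD, n = 3) and 12.8% ± 2.58 (SD, n = 3), and that of Rxra 19.2% and 22.2%. In every library 29 of the 36 genes reached at least 1 FPKM, and the others were Nr1h5, Esrrg, Nr4a2, Nr4a3, Nr2f1, Hnf4g and Vdr.

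**Figure D3:**
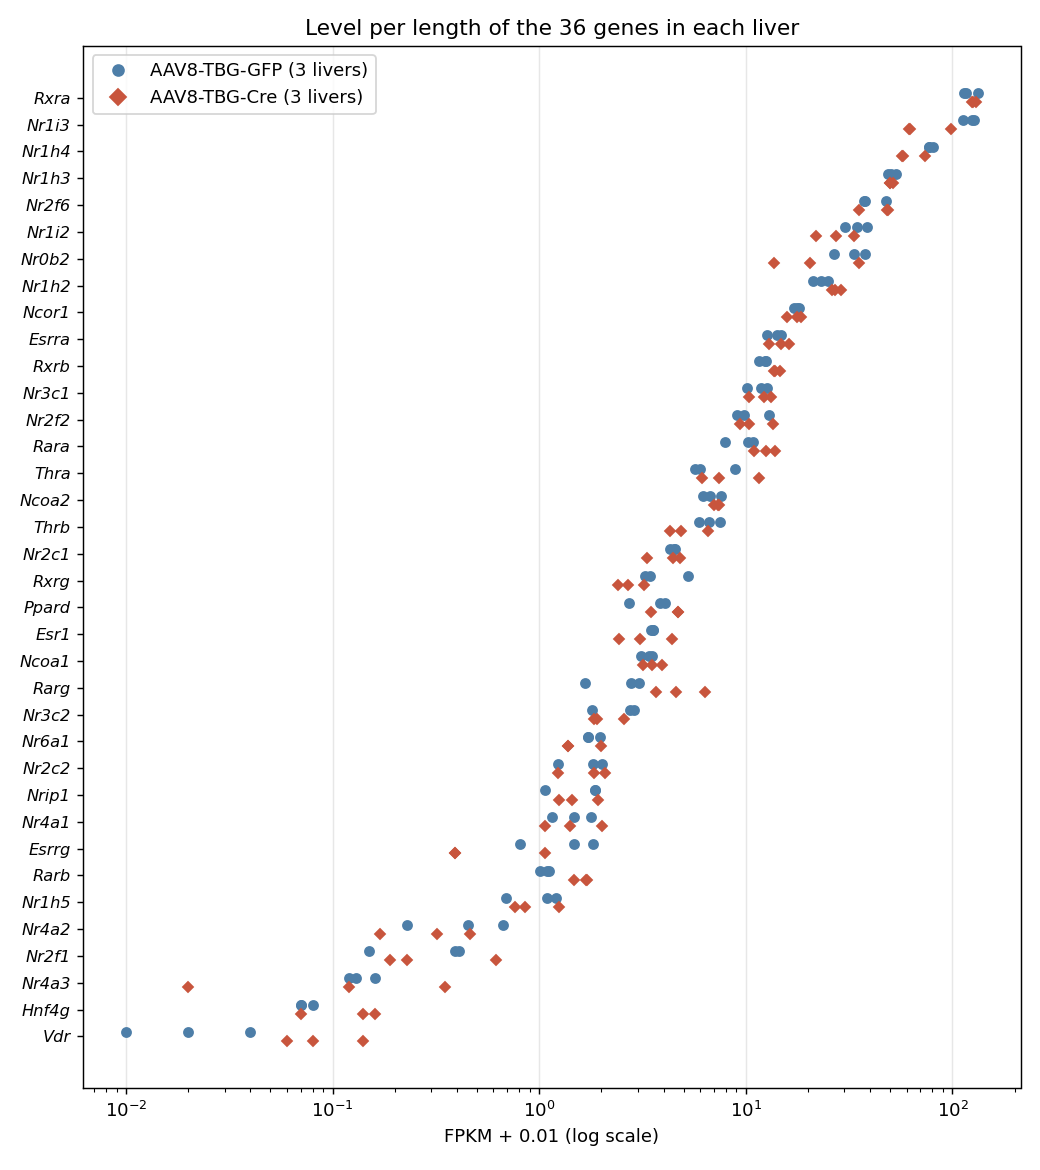
FPKM plus 0.01 on a log axis (x) of the 36 genes in each of the 6 livers, ordered by the mean of the controls, with circles for controls and diamonds for AAV8-TBG-Cre. Levels run from Rxra at 121 FPKM down to Vdr at 0.0133 FPKM in the control mean, and the diamonds of Nr1i3 and Nr1h4 lie to the left of the circles.

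In FPKM as deposited, without a scaling between libraries beyond the mapped fragments, 31 of the genes passed the filter of at least 0.5 FPKM in 3 libraries. Of these, 3 were lower without overlap (Nr1h4, Nr1i3 and Rxrg), or 9.68%, against 4.47% of all 12138 genes that passed. Another 5 were higher without overlap (Nr1h2, Rara, Rarb, Rarg and Rxrb), or 16.1%, against 23.1% of all genes. Rara had 10.2, 10.9 and 7.89 FPKM against 11.0, 12.4 and 13.8, and Rxrb had 11.5, 12.3 and 12.5 against 13.8, 14.6 and 13.7. For these receptors the AAV8-TBG-Cre livers were just above the controls in FPKM and overlapped with them in CPM.

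The library names have 2 digits in control replicates 1 and 2 and AAV8-TBG-Cre replicate 1, and 4 digits in the other 3, and no label explains this. All 8 lower genes were lower within both forms. For those whose groups did not overlap in CPM this had to be so. In each form 1 vector has 1 library only, so this adds no support. The log2 ratio of means for Nr1i3 was -1.03 among names of 2 digits and -0.92 among names of 4 digits, and for Esrrg it was -1.88 and -1.34. Values were smaller among names of 2 digits for Nr1h4 (-0.19 against -0.66), Nr1i2 (-0.22 against -0.54) and Thrb (-0.20 against -0.62). For Nr0b2 they were -0.65 and -0.93, for Rxrg -0.55 and -1.09, for Nr6a1 -0.42 and -0.51, and for Rarg 0.56 and 1.30. With the form as a covariate edgeR called the same 8 lower genes and Nr3c2, and Rarg higher.

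The files also divide counts among the transcripts of a gene, an estimate that is uncertain where transcripts are nearly the same. For Esr1 the transcript NM_001302531 took 54.2%, 37.5% and 51.1% of the counts in controls but 0.861%, 0% and 100% with AAV8-TBG-Cre, which shows how far such a split can swing within a group. The 18 genes with several transcripts and a mean of at least 100 counts had 48 transcripts. Of these, 9 in 5 genes had shares that did not overlap between groups, against 9.65% of 8540 such transcripts in all genes. Shares within a gene add up to the whole, so a shift can count in more than 1 transcript, here as over all genes. In Rarg, NM_001042727 took 67.3%, 75.4% and 66.9% of the counts in controls and 79.6%, 80.5% and 82.5% with AAV8-TBG-Cre, at the expense of NM_011244. In Ncoa2, NM_001302702 took 27.5%, 48.1% and 22.5% in controls and none of the counts in the 3 AAV8-TBG-Cre livers, whose Ncoa2 counts all went to NM_008678. In Nr1h3 the minor transcript NM_013839 took 3.92% ± 0.540 (SD, n = 3) and 7.08% ± 1.28 (SD, n = 3). The other genes were Nr1h2 and Rxra. In Nr1i3 the shares stayed alike, with 71.6% ± 5.77 (SD, n = 3) and 71.4% ± 1.25 (SD, n = 3) for NM_009803, so its lower level was spread over its transcripts.

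GGACT is the commonest form of the sequence in which METTL3 and METTL14 methylate adenosine. In the longest coding transcript of each gene in GENCODE vM1, the 36 genes had a median of 0.796 GGACT per kb, and 10 of them were above the median of 1.06 per kb of the genes tested. The 9 called genes had a median of 0.677 per kb and the 25 tested genes that were not called 0.885 per kb. The Nr1h4 transcript had 0 GGACT, and that of Nr1i3 had 1 in 1414 bases. The motif count is no measure of methylation.

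Around these receptors, 10 lists of other genes of their pathways were read, with 119 genes in all, and the background shares above apply to each count. Some of the 119 had too few counts to be tested. In the order described below, the lists had 11, 29, 7, 10, 14, 6, 13, 6, 7 and 8 genes tested. Klf9 is in both the thyroid hormone and the glucocorticoid list. At the unadjusted threshold 24 of the tested genes were called, 14 of these in every fit that left out a library. Over all genes tested, 12.0% were higher and 8.41% lower. Among the tested genes of the lists, the share called in either direction was close to that of all genes. Higher calls were a smaller share than over all genes, and lower calls a larger one. Whether the shares of the lists differ from those of all genes was not tested. Calls of Prmt1, Cyp7a1, Baat and Abcc3 were lost in 4 of the 6 such fits, that of Cyp2c29 in 3, and those of Abcg8, Cyp3a11 and Dusp1 in 2. Those of Cyp2c37 (without control replicate 1) and Ugt1a1 (without control replicate 3) were lost in 1. Over these fits the log2 fold change ran from 0.36 to 0.54 for Prmt1, from 0.24 to 0.44 for Cyp7a1 and from -0.44 to -0.24 for Baat. Among 11 other nuclear receptors tested, 2 were lower and none higher. Ppara, the fatty acid receptor gene, had 606, 615 and 572 CPM against 446, 371 and 437, a log2 fold change of -0.52 (SE 0.14, adjusted p = 0.0970 from edgeR). Pparg had a log2 fold change of -0.44 (SE 0.11, adjusted p = 0.0821 from edgeR). For both, each AAV8-TBG-Cre liver was below each control. Of 29 other coregulators, 2 were higher and 1 lower, with a median log2 fold change of 0.10. The higher ones were Lcor, a ligand-dependent corepressor gene (1.42, SE 0.28), and Prmt1, an arginine methyltransferase gene (0.43, SE 0.15). Smarca4, the gene of the chromatin remodeler BRG1, was lower (-0.46, SE 0.12). Lcor rests on few counts, at 0.712 to 1.07 CPM in controls and 2.07 to 2.55 CPM with AAV8-TBG-Cre.

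Known targets of FXR and SHP were 1 of 7 higher and 2 lower (median -0.22). The list joins genes that FXR induces with genes that SHP represses, so its median gives no direction for either receptor. Abcb11, the bile salt export pump gene that FXR induces, had 417, 387 and 403 CPM against 293, 247 and 288, a log2 fold change of -0.54 (SE 0.13, adjusted p = 0.0789 from edgeR). Cyp7a1, the rate-limiting enzyme gene of bile acid synthesis that SHP represses, had 229, 170 and 229 CPM against 269, 273 and 270 (0.37, SE 0.15, adjusted p = 0.207 from edgeR). The groups did not overlap for either gene. Baat, which conjugates bile acids, was lower (-0.36, SE 0.15). The other tested genes of this list were not called. They were Abcb4 (0.12, SE 0.30), Slc10a1 (-0.35, SE 0.19), Cyp8b1 (-0.20, SE 0.40) and Slc27a5 (-0.22, SE 0.19). LXR targets were 2 of 10 higher and 1 lower (median -0.25). Lpl, the lipoprotein lipase gene, had 16.9, 12.7 and 26.3 CPM against 81.8, 181 and 90.3, a log2 fold change of 2.66 (SE 0.38, adjusted p = 0.0363 from edgeR). Abcg1, a cholesterol exporter gene that macrophages also express, was higher (0.82, SE 0.20), and Abcg8, part of the canalicular sterol exporter, was lower (-0.95, SE 0.31).

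Among 14 targets of CAR and PXR, 4 were lower and 1 higher (median -0.23). Of the lower ones, Cyp2c29 and Abcc3 lost the call in 3 and 4 of the 6 fits that left out a library. Cyp2c37, a cytochrome P450 gene, had 277, 240 and 222 CPM against 75.4, 187 and 148 (-0.85, SE 0.30, adjusted p = 0.172 from edgeR). Ugt1a1, which conjugates bilirubin, had a log2 fold change of -0.59 (SE 0.20, adjusted p = 0.160 from edgeR). Cyp3a11, the classic PXR target, went the other way, with 547, 283 and 721 CPM against 687, 1887 and 1185. Its groups overlapped, and its log2 fold change was 1.28 (SE 0.44, adjusted p = 0.161 from edgeR). Genes of the Cyp2c, Cyp3a and Ugt1a families share sequence, so fragments of near copies can be divided among them uncertainly.

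Thyroid hormone receptor targets had 3 of 6 lower and none higher, with a median log2 fold change of -0.83. Hr (1.26, SE 0.55) and Klf9 (0.12, SE 0.12) had positive values and were not called. Me1, the malic enzyme gene, had 252, 210 and 182 CPM against 92.8, 95.5 and 91.2, a log2 fold change of -1.21 (SE 0.14, adjusted p = 0.0330 from edgeR). Gpd2, the mitochondrial glycerol-3-phosphate dehydrogenase gene, had 64.5, 69.6 and 76.8 CPM against 43.9, 41.7 and 43.5 (-0.71, SE 0.10, adjusted p = 0.0363 from edgeR). Dio1, which activates thyroid hormone, had 296, 313 and 285 CPM against 212, 107 and 141 (-0.96, SE 0.24, adjusted p = 0.0856 from edgeR). The AAV8-TBG-Cre livers lay below the controls for all 3 genes. Thrsp, another known target, had 520, 594 and 98.5 CPM against 454, 22.5 and 28.1 and followed the form of the library name more than the vector. Its log2 fold change of -1.26 (SE 1.16) enters the median above.

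Glucocorticoid receptor targets were 2 of 13 lower and 1 higher (median -0.12). Angptl4, an inhibitor of lipoprotein lipase, was lower (-0.91, SE 0.25), as was the phosphatase gene Dusp1 (-0.92, SE 0.30), and the kinase gene Sgk1 was higher (0.43, SE 0.13). Of 6 retinoic acid receptor targets, 1 was higher and none lower. Of 7 targets of the estrogen-related receptors, edgeR called none at either threshold (median -0.12). Of 8 immediate-early genes, 1 was lower, Fosb (-1.70, SE 0.47), at 0.239 to 2.14 CPM.

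**Figure D4:**
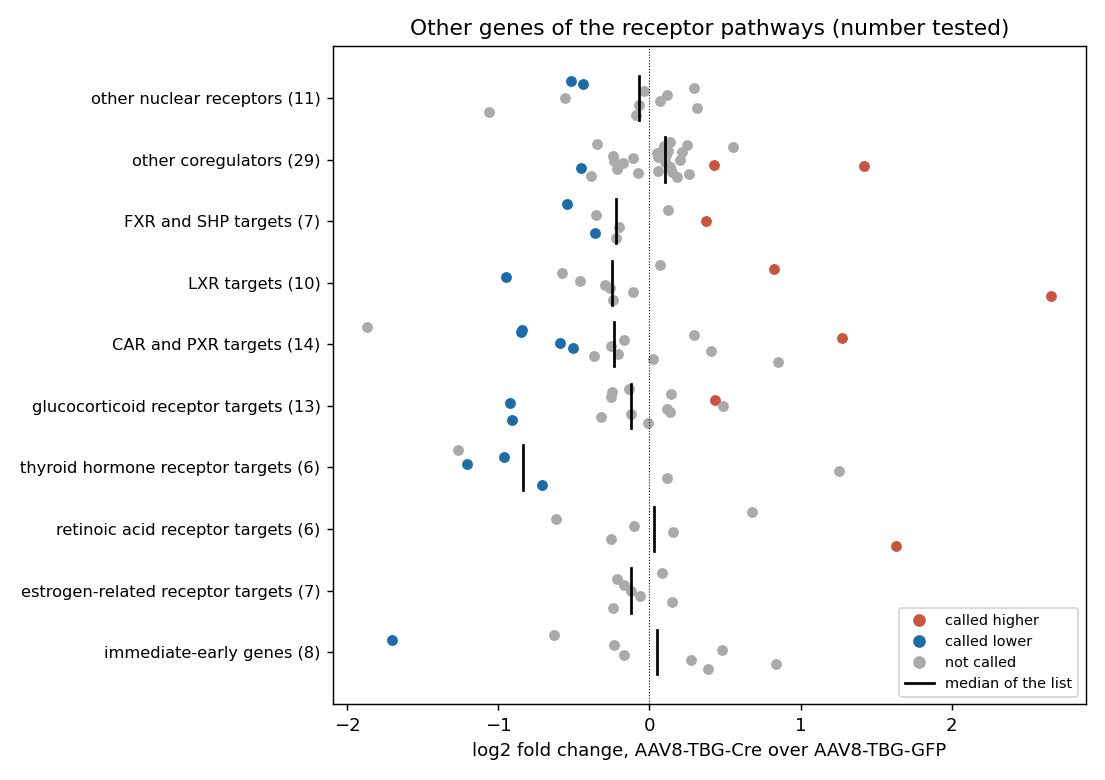
Log2 fold change (x axis, AAV8-TBG-Cre over controls, edgeR) of the tested genes of 10 pathway lists, 1 point a gene, with colour for genes past the unadjusted threshold and a bar at each list's median. The median of the thyroid hormone receptor targets lies at -0.83, and those of the other 9 lists lie between -0.25 and 0.10.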

How the data were processed

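The labels name 6 livers, 3 per vector, taken as separate mice. Deposited values, as the authors made them, are the expected count of each transcript and FPKM per transcript and gene. An expected count divides shared fragments and is not normalized. The submitters' processing notes list HISAT2, Bowtie2, RSEM and the build mm10 (GRCm38), without versions. STAR, HTSeq and DESeq2 are the tools in the methods of the paper. For each gene the expected counts were added up and rounded to whole numbers. The test was edgeR 4.0.16 (R 4.3.3), quasi-likelihood, with TMM, filterByExpr and the vector as only factor. Calls used an unadjusted p under 0.05 with a fold of at least 1.2, the threshold of the paper, and separately a Benjamini-Hochberg adjusted p under 0.05 over all genes tested. The SE of a log2 fold change is its size over the root of the quasi-F statistic. The alternatives used DESeq2 1.42.0, limma 3.58.1 on log2(FPKM + 1) and log2(FPKM + 0.1) with FPKM of at least 0.5 in 3 libraries, other settings of edgeR, and each library left out. The steps were tested on simulated data. With 3 mice against 3, an exact two-sided permutation test cannot go below p = 0.1. Levels carry counting error, which is large under 1 CPM.

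The 36 genes and all lists were chosen with earlier results of these data known. The text names each of the 36 genes, Mettl14, and the 3 smallest p-values among called genes of each pathway list. Exceptions chosen after their values were seen are Thrsp, Hr, Klf9, Abcb4, Slc10a1, Cyp8b1, Slc27a5, Cyp2c29, Abcc3 and Hnf4a. Marker sums describe cell types. Some genes that these rules would name are not reported here. Coordinates and promoters are from RefSeq on GRCm38.p6, and motif counts in transcripts from GENCODE vM1.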

Additional observations from a re-analysis of the deposited data

How the results depend on the processing

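In edgeR 8 of the 34 genes were lower and 1 higher at the unadjusted threshold, and 1 passed the adjusted one. DESeq2 gave 8, 2 and 2, and edgeR without a filter gave 8, 2 and 1; the further higher gene was Vdr in both, and the further adjusted call in DESeq2 was Esrrg. RLE scaling kept the same 9 unadjusted calls and left 0 adjusted ones, with Nr1i3 just above the threshold. The replicate block gave 6 lower, 1 higher and 0 adjusted, without Nr0b2 and Nr6a1. Deviations of same-numbered libraries correlated at 0.0091, -0.263 and 0.209, against best values of 0.153, 0.309 and 0.113 with other numbers. No label says that replicate numbers pair these mice, and with so few libraries the correlations cannot settle it. With limma the counts were 3 lower, 3 higher and 0 adjusted on log2(FPKM + 1) and on log2(FPKM + 0.1), and 3, 2 and 0 without a filter. At a fold of 1.5, 4 were lower (Nr1i3, Esrrg, Nr0b2 and Rxrg), so Nr1h4 was no longer called. Over the 6 fits that left out a library, 4 to 8 were lower and 0 to 4 passed the adjusted threshold, and 1 was higher each time. At a fold of 1.2, Nr1i3, Nr1h4 and Esrrg stayed lower and Rarg higher at the unadjusted threshold in all 14 alternative fits.

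The signs that turned belonged to genes that were not called. On log2(FPKM + 1), with or without a filter, the values were 0.068 for Rxra, 0.075 for Esrra, 0.048 for Nr3c1, 0.052 for Nr2f2, 0.099 for Nr2f6, 0.018 for Nr2c2, 0.0074 for Nr4a1, 0.060 for Ncoa1 and 0.082 for Ncoa2, and 0.025 for Nr2f1 without a filter. On log2(FPKM + 0.1) they were 0.068, 0.079, 0.052, 0.056, 0.10, 0.025, 0.0030, 0.075 and 0.092 in that order, Nr2f1 left out. These fits shift all genes up, by 0.11 to 0.14 at the median. With a term for the name form of the library, Thra had -0.088, Nr2f1 0.0061, Nr2c2 0.050 and Nr4a3 -0.15. Leaving out a library gave -0.042 to 0.069 for Rxrb, -0.11 to 0.36 for Thra, -0.046 to 0.19 for Ppard, -0.18 to 0.068 for Esrra, -0.71 to 0.21 for Nr2f1, -0.25 to 0.056 for Nr2f2, -0.20 to 0.075 for Nr2f6, -0.34 to 0.018 for Nr2c2, -0.34 to 0.015 for Nr4a1, -0.66 to 0.94 for Nr4a3 and -0.13 to 0.0039 for Ncoa2. The cause was not tested in any of these cases. Genes near 1 CPM (Nr2f1, Nr4a2, Nr4a3) rest on few counts, and at this depth changes of Vdr and Hnf4g were not detectable with the filter.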
